A study of Mus musculus with 3 samples.

Results

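Kit is a receptor tyrosine kinase of the cell surface, and Kitl (stem cell factor) is its only known ligand. These were 2 of the 36530 features counted in single cells of mouse melanoma, chosen as a receptor and ligand pair and read from the rows of their gene identifiers (Kit 16590, Kitl 17311). On the mouse build GRCm38.p6 both are annotated as protein-coding genes, Kit on chromosome 5 from 75574987 to 75656722 and Kitl on chromosome 10 from 100015615 to 100100416. Kitl is made as a membrane protein that can be shed by proteases, so that it acts on touching cells or at short range, and Kit passes the signal on through Src family kinases, phosphoinositide 3-kinase and the MAPK cascade. In skin, Kit is best known from mast cells and melanocytes, both of which need Kitl from fibroblasts, keratinocytes or endothelial cells to settle and survive. Kit is also known from blood progenitors and from some innate lymphoid and endothelial cells.

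The study profiled 3 melanomas, 1 untreated, 1 that regressed under vemurafenib and 1 that progressed under vemurafenib, an inhibitor of the mutant Braf kinase. All came from a C57BL/6 mouse model whose engineered alleles include Braf LSL.V600E and Tyr.CreER, in some animals also Rosa26 LSL.tdTomato, where the tyrosinase promoter drives an inducible Cre in the melanocyte lineage and 4-OH tamoxifen on the skin of young adults starts the tumor. The cells were taken from enzyme-digested tumors, and 2 reporter features, tdTomato and tWPRE, are added up below as the reporter. Each group was 1 tumor, so no difference between tumors could be set against a spread between animals and no test was made. Levels are given as unique molecular identifiers (UMIs, 1 per captured RNA molecule) per 1000000 UMIs of a cell group (CPM), each with an exact 95% interval that covers counting error only. Where 3 values follow each other with no tumor named, they are in the order untreated, regressed and progressed.

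In all 12670 cells were counted, 4095 from the untreated tumor (22202192 UMIs), 3726 from the regressed (12413268) and 4849 from the progressed one (26948940). The regressed library stood apart, its cells having a median of 2658 UMIs where the others had 4496 and 4566, and with more mast cell RNA in cells of every other kind. It also had Xist at 0.403 CPM against 1494 and 1735 CPM and Y-linked genes at 220 CPM against 0.946 and 1.19 CPM, so the animal's sex and the response of the tumor cannot be told apart. Summed over 4 mast cell proteases (Cpa3, Cma1, Mcpt4 and Tpsb2), the level outside the Mastcells cluster had a median of 0.472% of the mast cell level over 17 regressed clusters, with a range of 0.331 to 1.12%. The same median was 0.0128% over 18 untreated and 0.0529% over 16 progressed clusters. A low count of Kit outside mast cells in the regressed tumor was therefore read beside these proteases and beside macrophages, Monocytes1 and neutrophils, which are not known for Kit. In those 3 clusters together Kit stood at 2.33 CPM in the untreated, 16.5 CPM in the regressed tumor and 1.97 CPM in the progressed one, in 0.754%, 3.78% and 0.758% of cells at median depths of 3531, 1692.5 and 3475.5 UMIs.

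Receptor and ligand were counted mostly in different cells. Kit had 1103 UMIs in 496 cells and Kitl had 4158 UMIs in 2748 cells. Mast cells held 48.0% of the Kit UMIs of the untreated tumor (71 of 148, 39.7 to 56.3), 67.0% in the regressed (409 of 610, 63.2 to 70.8) and 80.3% in the progressed tumor (277 of 345, 75.7 to 84.4), although they were 0.391%, 2.84% and 1.75% of the cells. The fibroblast-rich clusters Stroma1 to Stroma10 held 86.9% of the Kitl UMIs in the untreated (1110 of 1277, 84.9 to 88.7), 80.5% in the regressed tumor (786 of 977, 77.8 to 82.9) and 87.0% in the progressed one (1657 of 1904, 85.4 to 88.5). These stroma clusters were 64.2%, 51.5% and 70.6% of the cells, so Kitl leaned to stroma less steeply than Kit to mast cells. In the untreated tumor the rest of Kit was spread over blood vessel cells (23 UMIs), macrophages and monocytes (10), NK/T cells (10), dividing cells (9), stroma (9), neutrophils (7) and tumor cells (5). In the regressed tumor the next largest share of Kitl lay in blood vessel cells, at 9.83% (96 UMIs, 8.03 to 11.9), against 3.45% (2.51 to 4.60) in the untreated and 0.630% (0.326 to 1.10) in the progressed tumor.

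**Figure D1:**
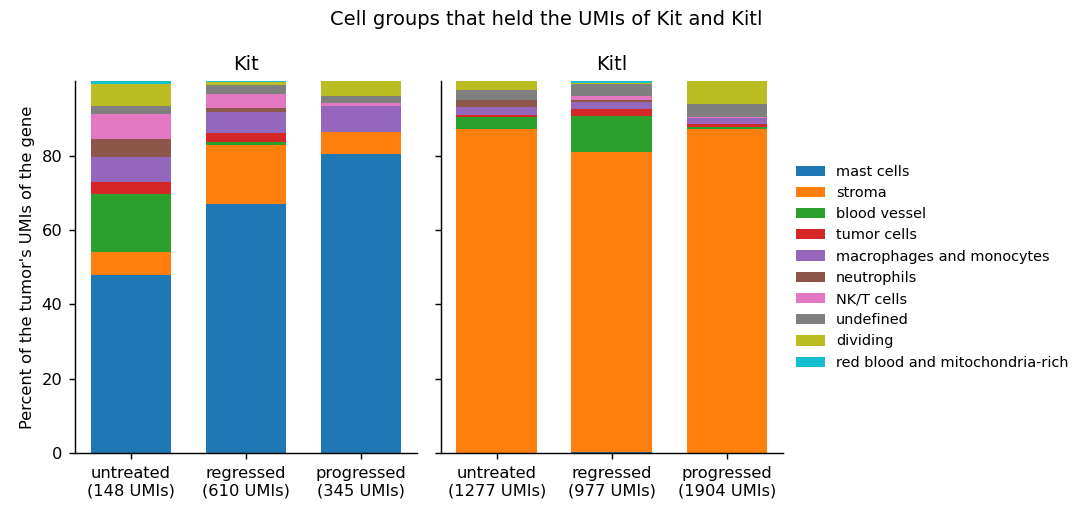
Stacked bars give the percent of each tumor's Kit UMIs (left) and Kitl UMIs (right) that lay in each group of deposited clusters, with the number of UMIs under each bar. Mast cells held 48.0 to 80.3% of Kit and stroma held 80.5 to 87.0% of Kitl.

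The Mastcells cluster carried the receptor at about 1000 CPM in all 3 tumors. Its leading genes were the mast cell proteases Cma1, Tpsb2, Mcpt4, Cpa3 and Tpsab1 with the IgE receptor chain Fcer1a, and all 11 listed mast cell markers were detected in each tumor. Kit was among the markers the study showed for these cells, so its presence here is no finding. At least 1 Kit UMI was held by 15 of the 16 mast cells of the untreated tumor, by 98 of 106 in the regressed and by 78 of 85 in the progressed one. The median cell held 4.5 Kit UMIs in the untreated, 3 in the regressed tumor and 3 in the progressed one, and the highest held 8, 23 and 12. Most mast cells of each tumor thus held several copies, and 1, 8 and 7 cells held none. Thinned to 1000 UMIs per cell, with 1, 17 and 2 shallower cells left out, the shares with Kit were 73.3% (44.9 to 92.2), 70.8% (60.2 to 79.9) and 50.6% (39.4 to 61.8), with overlapping intervals.

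**Figure D2:**
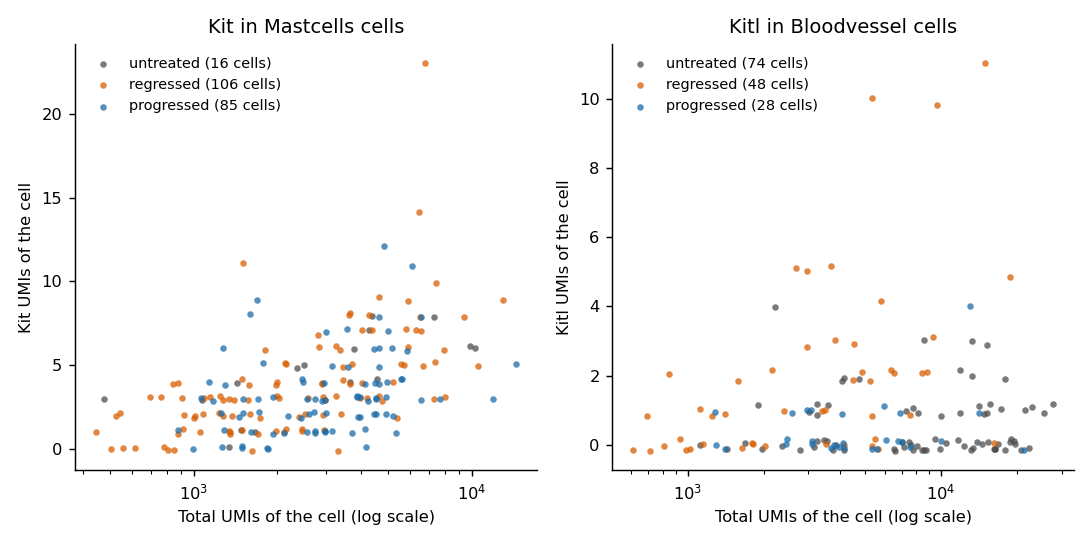
Each point is 1 cell, placed by its total UMIs (horizontal, log scale) and its UMIs of Kit in mast cells (left) or of Kitl in blood vessel cells (right), with a small vertical jitter. Mast cells of the 3 tumors overlap, while 12 of 48 regressed blood vessel cells held 3 or more Kitl UMIs against 4 of 74 untreated and 1 of 28 progressed cells.

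Summed over mast cells, Kit stood at 1175 CPM in the untreated tumor (917 to 1482), 1243 CPM in the regressed tumor (1125 to 1369) and 932 CPM in the progressed one (825 to 1048). The log2 ratio was 0.08 (-0.29 to 0.47) for regressed over untreated, -0.42 (-0.64 to -0.19) for progressed over regressed and -0.33 (-0.72 to 0.06) for progressed over untreated. Only the step from regressed to progressed lay outside counting error, and it was a difference of less than 1.5-fold. Of all genes counted in mast cells 50.3%, 32.2% and 31.6% went at least as far in the same direction, so these differences did not stand out among them. With TMM scaling the latter 2 ratios were -0.22 and 0.0023. The untreated value rests on 16 cells.

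The genes that act with Kit in mast cells were read from 6 lists (related receptors, related ligands, sheddases of Kitl, signal transducers, negative regulators and transcription factors), 42 genes without Kit and Kitl. For regressed over untreated, 3 of the 20 with at least 20 UMIs over both tumors were at least 2-fold higher and 0 at least 2-fold lower, where 17.9% and 7.23% of all genes were. For progressed over regressed, 1 of 24 was higher and 3 were lower, against 4.89% and 12.2% of all genes, and for progressed over untreated 4 of 19 were higher and 0 lower, against 12.1% and 8.02%. These counts are small, and with so few genes a share of the list is a description only.

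Gata2, a transcription factor of mast cells and blood progenitors, was high in mast cells of every tumor, at 993, 1039 and 1423 CPM. Mitf, the transcription factor that mast cells share with melanocytes, stood at 82.7 CPM (5 UMIs, untreated), 194 CPM (64 UMIs, regressed) and 172 CPM (51 UMIs, progressed). Its log2 ratio of 1.23 (-0.06 to 2.90) for regressed over untreated included 0. Grb2, the adaptor that links Kit to Ras, showed a similar order with 82.7, 191 and 118 CPM, and a log2 ratio of 1.21 (-0.09 to 2.88) for regressed over untreated. Among the negative regulators, the phosphatase Inpp5d stood at 149, 261 and 272 CPM and the phosphatase Ptpn6 at 66.2, 134 and 172 CPM. Spred1, an inhibitor of Ras signalling, stood at 199, 210 and 104 CPM, and its log2 ratio of -1.01 (-1.67 to -0.38) for progressed over regressed lay outside counting error. Pdgfrb, a related receptor best known from fibroblasts and pericytes, fell from 82.0 to 33.6 CPM in the same comparison (log2 ratio -1.29, -2.50 to -0.19), while Pdgfa, a ligand of the related receptor Pdgfra, went from 39.5 to 87.4 CPM (1.15, 0.13 to 2.23). Shc1, an adaptor, was the third lower gene there, and Csf1, Pdgfa, Ptpn6 and Mitf were the 4 higher ones for progressed over untreated, all with intervals that included 0. The fibroblast list moved with Pdgfrb in mast cells, at 8091 CPM in the untreated, 4276 CPM in the regressed tumor and 2200 CPM in the progressed one, and its part in these values was not tested.

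Outside mast cells, Kit was near the level of cells not known for it in most clusters, and the values of those that stood above it before thinning follow. In untreated blood vessel cells Kit stood at 29.5 CPM (18.7 to 44.3), with 23 UMIs in 16 of 74 cells (21.6%, 12.9 to 32.7). In untreated neutrophils it stood at 4.60 CPM (1.85 to 9.48), in 5 of 391 cells (1.28%, 0.416 to 2.96), and the mast cell proteases were no higher in the vessel cells (21.8 CPM) than in the neutrophils (23.0 CPM). The vessel cells were deeper, with a median of 9089 UMIs against 3257. After each cell was thinned to 1000 UMIs none of the 74 held Kit (0 to 4.86%), against 4 of 383 neutrophils (1.04%, 0.285 to 2.65). These intervals overlapped, so the thinned shares cannot set the 2 clusters apart in either direction. Of the 16 vessel cells with Kit, 1 held a protease UMI, as did 13 of all 74 (17.6%). The regressed vessel cells held 5 Kit UMIs in 4 of 48 cells (23.3 CPM, 7.57 to 54.4), all 4 with a protease UMI where 35 of all 48 held one (72.9%), and the progressed ones held 0 in 28 cells, which allows a level of up to 19.1 CPM.

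Lymphoid cells were a second place with Kit. In NK_T and NK_T_Cytolytic cells together, Kit stood at 62.7 CPM in the untreated (10 UMIs in 40 cells), 31.4 CPM in the regressed tumor (23 UMIs in 238 cells) and 16.8 CPM in the progressed one (3 UMIs in 41 cells). A Kit UMI was found in 17.5%, 8.82% and 4.88% of these cells at median depths of 3380.5, 2737.5 and 3122 UMIs, and the mast cell proteases there stood at 43.9, 641 and 95.4 CPM. The NK_T cluster, which held the innate lymphoid markers at 1372 to 1774 CPM (mast cells at 1621 to 1872 CPM), had 7, 12 and 0 Kit UMIs. This gave 57.9, 22.3 and 0 CPM. NK_T_Cytolytic, whose leading genes included Cd3g, Cd3e, Cd3d and Nkg7, had 3, 11 and 3 Kit UMIs in 15, 58 and 24 cells. Its levels of 78.1, 56.5 and 37.1 CPM were no lower than those of NK_T. The log2 ratios of the 2 clusters together were -0.999 (-2.13 to 0.24) for regressed over untreated, -0.90 (-3.28 to 0.83) for progressed over regressed and -1.90 (-4.40 to 0.06) for progressed over untreated. All 3 intervals included 0, and the downward order was within counting error. Thinned to 1000 UMIs per cell, 1, 7 and 0 Kit UMIs were left in 39, 224 and 41 cells. The first ratio was then 0.29, the opposite direction, but on 1 untreated UMI. The second was 1.23 only with 3 UMIs in place of the progressed 0, so this value gives no direction.

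Before thinning, Monocytes2 cells also held Kit above the other myeloid clusters. The deposited name says monocytes, but the leading genes Ccl17, Cd209a and H2-Ab1 are known from dendritic cells, so what these cells are is uncertain. Kit stood there at 18.7 CPM in the untreated (8.09 to 36.9), 41.4 CPM in the regressed tumor (24.5 to 65.4) and 20.7 CPM in the progressed one (12.8 to 31.7), in 7 of 69, 13 of 57 and 18 of 161 cells. After thinning, Kit was left in 0 of 66, 3 of 56 and 3 of 156 Monocytes2 cells. These shares were 0% (0 to 5.44), 5.36% (1.12 to 14.9) and 1.92% (0.398 to 5.52). In macrophages, Monocytes1 and neutrophils together they were 0.442% (0.12 to 1.13), 1.44% (0.529 to 3.10) and 0% (0 to 0.954). Monocytes2 was higher in the regressed and progressed tumors, but the intervals overlapped in each tumor. None of the 7 untreated Monocytes2 cells with Kit held a protease UMI, where 4 of all 69 did (5.80%). All 13 regressed ones did, where 54 of all 57 did (94.7%), so in that tumor this sets the cells with Kit little apart from the rest. In the progressed tumor 10 of the 18 cells with Kit held one (55.6%), where 48 of all 161 did (29.8%). Dividing cells had 17.4, 24.3 and 8.30 CPM of Kit on 9, 5 and 14 UMIs.

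**Figure D3:**
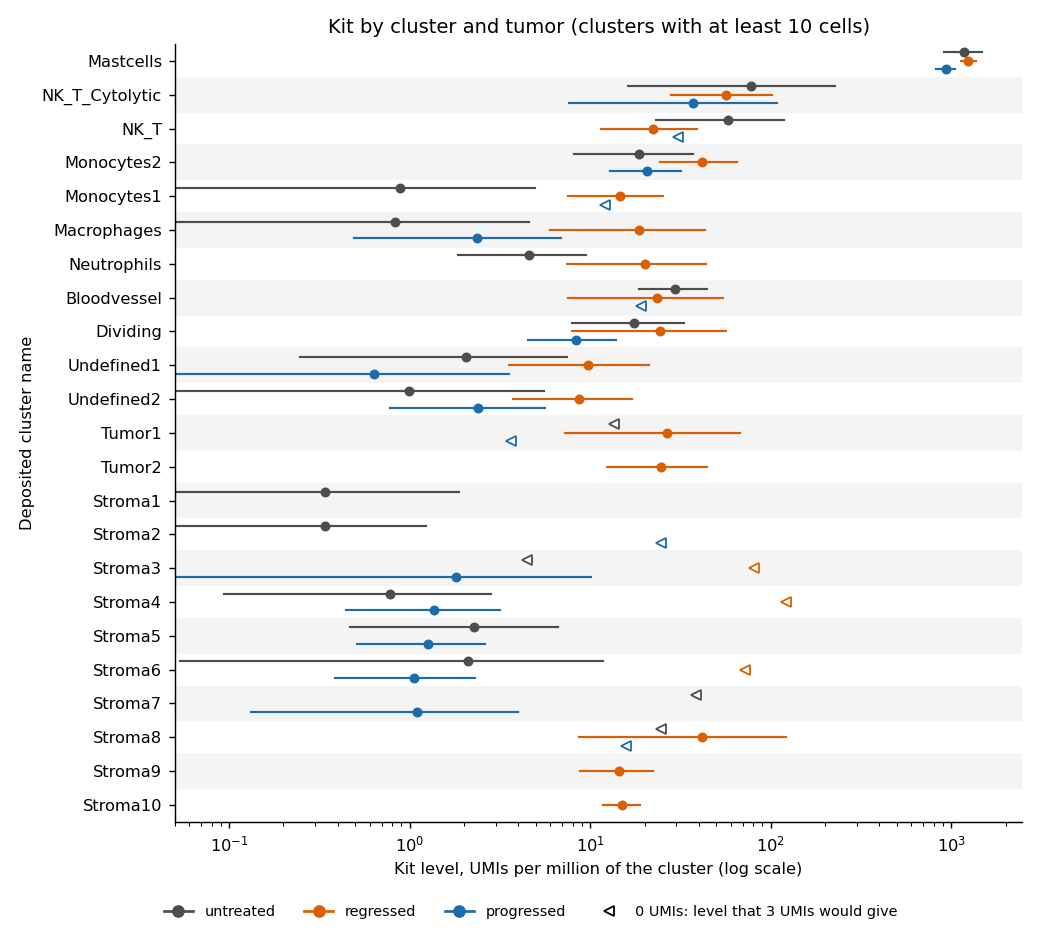
Kit level in CPM (horizontal, log scale) for each deposited cluster with at least 10 cells (vertical) in the 3 tumors, with exact Poisson 95% intervals. Open triangles mark 0 UMIs, drawn at the level 3 UMIs would give. Mast cells lie near 1000 CPM, and the regressed points of most other clusters lie to the right of the other tumors.

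In stroma both Kit and the mast cell proteases were highest in the regressed tumor. Kit stood at 0.639 CPM in the untreated (9 UMIs), 14.9 CPM in the regressed tumor (96 UMIs) and 1.19 CPM in the progressed one (21 UMIs). The log2 ratio was 4.55 (3.56 to 5.72) for regressed over untreated and -3.65 (-4.40 to -2.95) for progressed over regressed, and 0.365% and 0.858% of all stroma genes went at least as far. For progressed over untreated it was 0.90 (-0.29 to 2.21), with 4.38% of genes at least as far higher. The proteases stood at 15.1, 516 and 57.02 CPM in the same cells, and all 11 mast cell markers were at least 2-fold higher in regressed than in untreated stroma, where 13.7% of all genes were. Per 1000 protease UMIs stroma held 42.3 Kit UMIs in the untreated (19.1 to 81.7), 29.0 in the regressed tumor (23.4 to 35.5) and 20.9 in the progressed one (12.9 to 32.2). These intervals overlapped, whereas mast cells themselves held 8.93, 11.3 and 8.53. A protease UMI was held by 68 of the 94 regressed stroma cells with Kit (72.3%) and by 1443 of all 1918 (75.2%). Without the cells that held a mast gene UMI the first and second ratio were 5.29 and -4.33. Whether a cell shows such a UMI also depends on its depth, so this filter cannot show where the Kit came from. Regressed stroma had Kit in 94 of 1918 cells (4.90%, 3.98 to 5.96) at a median of 3151.5 UMIs, against 3.78% (2.35 to 5.72) of the shallower macrophages, Monocytes1 and neutrophils of that tumor. Thinned to 1000 UMIs these shares were 1.56% and 1.44%, and the level of 14.9 CPM was below the 16.5 CPM of those cells. The part of RNA from mast cells in the Kit of stroma was not tested.

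Tumor cells of the Tumor1 cluster held almost no Kit. The cluster was checked by its leading genes, which included Sox10 and Fabp7 of the neural crest and Schwann lineage and the reporter feature tWPRE, while of 12 melanocyte markers 6, 5 and 4 were at 0 in the 3 tumors, Mlana in each. None of 44 untreated and none of 156 progressed Tumor1 cells held a Kit UMI, which allows levels of up to 13.6 and 3.62 CPM. In the regressed tumor 4 of 61 cells held 1 Kit UMI each (26.5 CPM, 7.22 to 67.8), and all 4 also held a mast cell protease UMI, as did 38 of all 61 (62.3%). In neutrophils and macrophages of that tumor Kit stood at 20.2 and 18.6 CPM, so the regressed Tumor1 value did not stand above cells not known for Kit.

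Kit in tumor cells lay with the pigment genes. Tumor2, led by Dct, Pmel and Tyrp1 (enzymes and a structural protein of the pigment granule), was 349 of the 410 tumor cells of the regressed tumor, where 174 of them held a reporter UMI, and 4 cells in each of the other two. Of all 618 tumor cells, 10 had Dct, Pmel and Tyrp1 at 10 or more UMIs in sum. These 10 cells held 13 of the 20 Kit UMIs of all tumor cells, at 267 CPM (142 to 456), and 7 of them held Kit. The other 608 tumor cells held 7 Kit UMIs in 7 cells, at 4.24 CPM (1.70 to 8.74).

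By tumor, both untreated pigment-rich cells held Kit (4 and 1 UMIs in cells of 6637 and 9724 UMIs), with 0 protease UMIs. Of the 7 regressed ones 5 held Kit (1, 1, 1, 3 and 2 UMIs), 2 of these 5 with no protease UMI, and the single progressed one held none in 3884 UMIs. Mitf was at 533 CPM in the 10 pigment-rich cells and at 33.9 CPM in the other tumor cells. Of the 10 cells, 5 held a UMI of the reporter, against 410 of the other 608, and both untreated ones held none, so whether these cells were tumor cells or other melanocytes cannot be told apart here. Kit and the pigment genes share cells and depth in this comparison, and the pigment-rich cells were deeper (a median of 4293.5 UMIs against 1407.5).

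Over Tumor1 and Tumor2 together Kit stood at 18.9 CPM in the untreated, 25.2 CPM in the regressed tumor and 0 in the progressed one. Set against 3 UMIs over the progressed tumor cells, the log2 ratio of progressed over regressed was -2.82, with an interval reaching to -2.34. It was -1.78 without the pigment-rich cells and -0.64 after thinning, so its size depended on these settings. Without the pigment-rich cells the untreated tumor cells held 0 Kit UMIs in 46 cells, the progressed 0 in 159 and the regressed 7 in 403, with 12.3 CPM (4.96 to 25.4) against 16.5 CPM in that tumor's macrophages, Monocytes1 and neutrophils. The regressed tumor cells were shallow, with a median of 832 UMIs.

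Kitl was counted chiefly in stroma, at levels that differed between stroma clusters. In the untreated tumor it ranged from 17.8 CPM in Stroma3 (9.18 to 31.0) to 102 CPM in Stroma4 (90.2 to 115) and 101 CPM in Stroma2 (93.1 to 110), with Stroma5 at 34.1, Stroma1 at 51.8 and Stroma6 at 71.7 CPM between them. The intervals of Stroma2 and Stroma4 overlapped, and those of Stroma1 and Stroma3 did not. In the progressed tumor Stroma4 was at 146 CPM (134 to 159) and Stroma6 at 130 CPM (120 to 139), while Stroma7 was at 40.1, Stroma5 at 45.2 and Stroma3 at 49.0 CPM with overlapping intervals. The regressed stroma was almost all Stroma10, at 132 CPM (122 to 142), and Stroma9, at 94.0 CPM (78.6 to 112). Thus a subset of stroma clusters (Stroma2, Stroma4, Stroma6, Stroma9 and Stroma10) carried most of the ligand. Among clusters with at least 50 cells, the share of cells with Kitl ran from 9.17% of untreated Stroma3 to 40.3% of progressed Stroma4 cells.

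**Figure D4:**
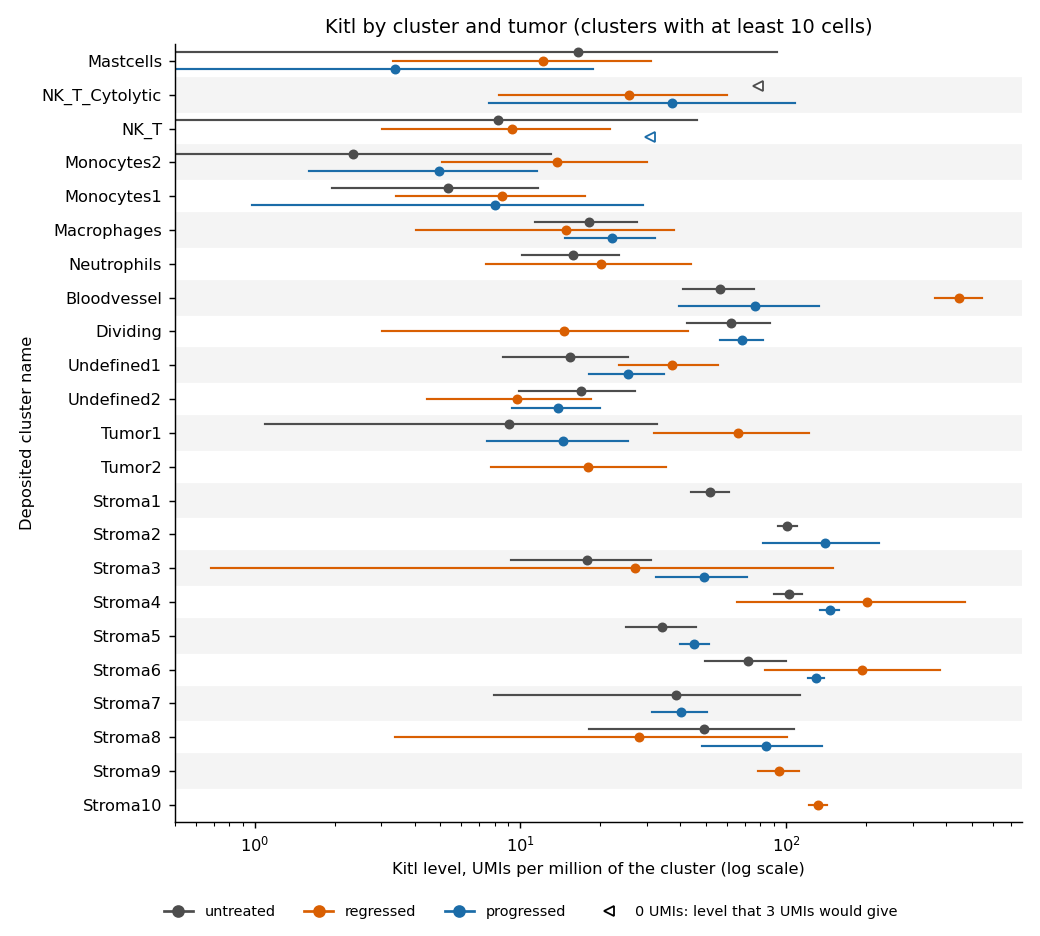
Kitl level in CPM (horizontal, log scale) for each deposited cluster with at least 10 cells (vertical) in the 3 tumors, with exact Poisson 95% intervals. Open triangles mark 0 UMIs, drawn at the level 3 UMIs would give. Regressed blood vessel cells at 448 CPM lie apart from the other 2 tumors, and stroma clusters range from 17.8 to 202 CPM.

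Macrophages, Monocytes1 and neutrophils set the background of Kitl, at 13.5 (untreated), 12.2 (regressed) and 19.7 CPM (progressed) and in 4.42%, 2.70% and 6.82% of cells. Stroma as a whole stood well above this, at 78.9 CPM in the untreated (74.3 to 83.6), 122 CPM in the regressed tumor (114 to 131) and 94.2 CPM in the progressed one (89.7 to 98.8). The share of stroma cells with a UMI was 28.2%, 28.3% and 31.5%. Thinned to 1000 UMIs, leaving out 29, 185 and 22 shallower cells, these shares were 8.89% (7.82 to 10.1), 11.6% (10.1 to 13.2) and 9.26% (8.31 to 10.3).

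The log2 ratio of Kitl in stroma was 0.63 (0.50 to 0.77) for regressed over untreated, -0.38 (-0.50 to -0.25) for progressed over regressed and 0.26 (0.15 to 0.37) for progressed over untreated. These differences were within 2-fold, and 24.7%, 39.6% and 20.8% of all stroma genes went at least as far in the same direction. They also rested on which clusters each tumor held. Stroma10 had 1537 cells in the regressed tumor against 4 untreated and 7 progressed ones, and without it the difference of progressed over regressed was 0.0062 (turned in sign) and that of regressed over untreated 0.25. With TMM scaling, which added -0.25 and 0.31 to every log2 ratio of the first and second of these comparisons in stroma, the difference of progressed over regressed was -0.071. Within single clusters with at least 50 cells in both tumors, progressed stood above untreated by a log2 ratio of 1.46 (0.43 to 2.58) in Stroma3, 0.51 (0.30 to 0.73) in Stroma4 and 0.85 (0.36 to 1.39) in Stroma6, and by 0.40 (-0.06 to 0.90) in Stroma5. After thinning to 1000 UMIs per cell the order was less clear. Stroma4 stood at 111 CPM in the untreated and 149 CPM in the progressed tumor and Stroma6 at 123 and 135 CPM, while Stroma5 stood at 60.6 and 54.4 CPM and Stroma3 had 2 UMIs and 0 UMIs.

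**Figure D5:**
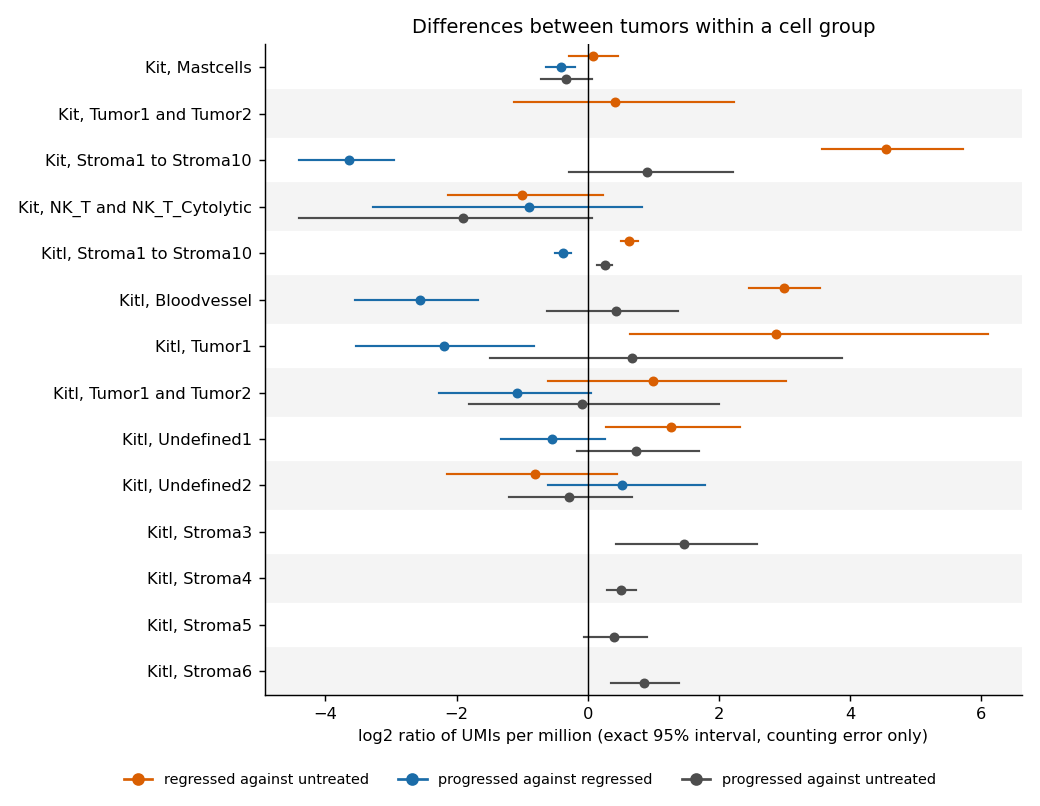
Points give the log2 ratio of CPM between 2 tumors (horizontal) for Kit and Kitl in each cell group (vertical), and lines the exact 95% interval for counting error. Kitl in blood vessel cells of the regressed tumor, at 2.99 over untreated, and Kit in stroma, at 4.55, lie farthest from 0 among the regressed over untreated ratios.

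Blood vessel cells showed the widest difference of Kitl outside counting error. Endothelial cells are a known source of the ligand in bone marrow. The cluster was endothelial by its markers in every tumor, with all 8 listed genes detected at 5742, 5293 and 5380 CPM in sum, and Pecam1 at 1030, 1045 and 821 CPM. Kitl stood at 56.5 CPM in the untreated (44 UMIs, 41.0 to 75.8), 448 CPM in the regressed tumor (96 UMIs, 363 to 547) and 76.4 CPM in the progressed one (12 UMIs, 39.5 to 133). At least 1 Kitl UMI was found in 29 of the 74 vessel cells of the untreated tumor, in 31 of 48 of the regressed and in 9 of 28 of the progressed, although the regressed cells were the shallowest (medians of 9089, 3504.5 and 4089.5 UMIs). Regressed vessel cells were thus high, and the intervals of the other 2 tumors overlapped.

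The log2 ratio was 2.99 (2.46 to 3.54) for regressed over untreated and -2.55 (-3.55 to -1.68) for progressed over regressed, and of all genes counted there 0.687% and 1.11% went at least as far in the same direction. For progressed over untreated it was 0.44 (-0.62 to 1.38). The size of the first ratio depended on how cells were weighted, at 2.38 with equal weight per cell, 2.41 without the deepest 5% of cells and 1.71 after thinning, and the second was -1.45 after thinning. Neither ratio turned in direction under these settings. In the regressed tumor the cell with the most Kitl held 11 of the 96 UMIs (11.5%), so the level did not rest on a single cell. The fibroblast list stood at 1339 CPM (untreated), 4347 CPM (regressed) and 4756 CPM (progressed). In the regressed tumor it stood at 4623 CPM in the vessel cells with Kitl and 3525 CPM in those without, and in the progressed tumor at 1667 and 6374 CPM. The pericyte list stood at 74.5, 182 and 25.5 CPM, and in the regressed tumor at 206 CPM in cells with Kitl against 111 CPM in those without. The keratinocyte list stood at 223, 1287 and 274 CPM. Of its counted genes 5 of 7 were at least 2-fold higher for regressed over untreated, against 14.1% of all genes. For progressed over regressed 6 of 6 were at least 2-fold lower, against 11.8% of all genes. Of the 5 pericyte genes, 2 had enough UMIs for regressed over untreated, 1 at least 2-fold higher and 1 lower. None had enough for progressed over regressed. Keratinocyte markers were thus highest in the regressed tumor, as Kitl was, while the pericyte list was so only in its sum. This was not particular to vessel cells. For regressed over untreated, 6 of 6 counted keratinocyte genes were at least 2-fold higher in mast cells, 5 of 5 in Tumor1 and 10 of 10 in stroma. Of all genes 17.9%, 11.7% and 13.7% were so. The mast cell list stood at 105, 592 and 76.4 CPM and the red blood list at 50.1, 1838 and 0 CPM, both also highest in the regressed tumor. The part of RNA from other cells in the Kitl difference was not tested, nor could the tumor be told apart from the animal.

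Other genes of the axis in vessel cells gave fewer differences. Of the 42 pathway genes, 3 of 23 with enough UMIs were at least 2-fold higher in regressed than in untreated vessel cells and 1 lower, where 14.1% and 10.7% of all genes were. Mitf was the farthest, at 6.42 CPM in the untreated (5 UMIs), 74.6 CPM in the regressed tumor (16 UMIs) and 12.7 CPM in the progressed one (2 UMIs), a log2 ratio of 3.54 (2.02 to 5.34) for regressed over untreated. Pik3r1, the regulatory subunit of phosphoinositide 3-kinase, was higher by 1.14 (0.37 to 1.87), and Pdgfa was lower by a log2 ratio of -1.62 (-3.12 to -0.42). Adam17, a sheddase of Kitl, stood at 32.1, 65.3 and 31.8 CPM on 25, 14 and 5 UMIs, and its log2 ratio of 1.02 (-0.03 to 2.02) included 0. For progressed over regressed 1 of 11 genes was higher and 3 lower, against 8.54% and 11.8% of all genes, and for progressed over untreated 0 of 21 were higher and 3 lower, against 8.62% and 11.9%. Among those past 2-fold were Gata2 (higher), Grb2, Jak2 and Spred1 (lower) in the former and Pdgfd, Grb2 and Dok1 (lower) in the latter, each on few UMIs.

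The same lists were read in stroma, where the ligand lay. Of 36 pathway genes with enough UMIs, 7 were at least 2-fold higher in regressed than in untreated stroma and 1 lower, where 13.7% and 7.09% of all genes were. The 7 were Pik3r1, Plcg1, Vav1, Ptpn6, Inpp5d, Mitf and Gata2. Of these, Gata2 (log2 ratio 3.94), Plcg1 (3.35), Inpp5d (2.84) and Vav1 (2.05) stood at 10.1 CPM or lower in every tumor's stroma. Gata2, Inpp5d and Vav1 are known from blood cells, while Plcg1, a phospholipase, is not particular to them. Pik3r1 was counted far more, at 122, 258 and 107 CPM. This gave log2 ratios of 1.08 (0.98 to 1.18) and -1.27 (-1.36 to -1.17) in the first and second comparison, both under 2-fold with TMM scaling. For progressed over regressed 1 of 38 genes was higher and 10 lower, against 4.99% and 15.9% of all genes, and for progressed over untreated 0 of 36 were higher and 1 lower, against 3.57% and 5.7%. The 10 were these 7 with Csf1r, Flt3 and Sos1, and Pdgfc was the higher one.

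Among related ligands and receptors in stroma, Il34, Csf1, Pdgfra and Pdgfrb were within 2-fold between tumors. Il34, a ligand of Csf1r, stood at 98.6, 135 and 154 CPM, and Csf1, the other ligand of that receptor, at 62.9, 49.2 and 67.6 CPM. The receptors Pdgfra (342, 241 and 216 CPM) and Pdgfrb (276, 255 and 287 CPM) belong to fibroblasts and pericytes. The sheddase Adam17 was nearly level, at 34.2, 33.5 and 33.3 CPM, and Mmp9, a second protease that can release Kitl, was low at 5.33, 3.58 and 2.90 CPM. Spred1, an inhibitor of Ras signalling, was at 145, 172 and 275 CPM, with a log2 ratio of 0.92 for progressed over untreated.

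Kitl in tumor cells was low and close to background in 2 tumors. Tumor1 cells held 2 Kitl UMIs in 44 untreated cells (9.07 CPM, 1.10 to 32.8), 10 UMIs in 8 of 61 regressed cells (66.2 CPM, 31.7 to 122) and 12 UMIs in 10 of 156 progressed cells (14.5 CPM, 7.49 to 25.3). The regressed level lay above that tumor's macrophages, Monocytes1 and neutrophils at 12.2 CPM, and the other two did not lie above theirs. The log2 ratio was 2.87 (0.64 to 6.10) for regressed over untreated and -2.19 (-3.53 to -0.82) for progressed over regressed, where 0.868% of all Tumor1 genes were at least as far lower. On so few UMIs it was not stable in size: the first ratio was 0.60 after thinning. That value is a bound, with 3 UMIs in place of 0 in the untreated cells. Over Tumor1 and Tumor2 together the levels were 15.2, 30.2 and 14.3 CPM, and all 3 intervals of the log2 ratios included 0. The 10 pigment-rich cells held 0 Kitl UMIs.

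In Tumor1 the pathway lists held few genes with enough UMIs. For regressed over untreated 2 of 9 were at least 2-fold higher and 1 lower, against 11.7% and 12.6% of all genes. The corresponding counts were 3 and 2 of 21 for progressed over regressed, against 14.4% and 12.6%, and 3 and 0 of 20 for progressed over untreated, against 11% and 6.08%. Past 2-fold were Pik3r1, Src and Pdgfb in the first comparison, Il34, Sh2b3, Dok1, Cbl and Mitf in the second, and Pik3r1, Ptpn6 and Sh2b3 in the last. Pdgfa was the ligand with the most UMIs there, at 703, 867 and 1017 CPM. Pik3r1 was again higher in the regressed tumor than in the untreated one, at 172 against 40.8 CPM (26 and 9 UMIs).

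The Undefined1 and Undefined2 clusters were rich in keratinocyte markers, at 20068 to 40567 CPM in sum, and keratinocytes are a known source of Kitl. Undefined1 held Kitl at 15.4 CPM in the untreated (15 UMIs), 37.1 CPM in the regressed tumor (23 UMIs) and 25.5 CPM in the progressed one (40 UMIs). Undefined2 held 16.9, 9.70 and 13.9 CPM, which lay within the background intervals of 10.1 to 17.7, 7.12 to 19.6 and 13.3 to 28.1 CPM. For Undefined1 the log2 ratio of regressed over untreated was 1.27 (0.27 to 2.32), but it turned to -0.47 after thinning each cell to 1000 UMIs. The thinned value rested on 3 UMIs in 107 regressed and 5 UMIs in 129 untreated cells, so it gives no direction. The other 5 ratios in these 2 clusters had intervals that included 0. Kit in Undefined1 and Undefined2 stood at 0.637 to 2.39 CPM in the untreated and progressed tumors and at 9.68 and 8.62 CPM in the regressed tumor, below that tumor's myeloid background. Dividing cells, whose leading genes joined cell cycle genes to hair keratins such as Krt35 and Krt71, held Kitl at 61.8 CPM in the untreated tumor and 68.2 CPM in the progressed one (115 UMIs in 60 of 147 cells). In the regressed tumor they held it at 14.6 CPM (3.01 to 42.6), on 3 UMIs in 3 of 75 cells with a median of 889 UMIs.

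Mast cells held few Kitl UMIs, with 1, 4 and 1 in the 3 tumors. This gave 16.5 CPM (0.419 to 92.2), 12.2 CPM (3.31 to 31.1) and 3.36 CPM (0.0852 to 18.7). Macrophages, Monocytes1 and neutrophils stood at 13.5, 12.2 and 19.7 CPM. The cells with the most receptor thus did not hold the ligand above background outside counting error. The untreated interval, on 16 cells, reached above the 78.9 CPM of untreated stroma.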

How the data were processed

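Single-cell mRNA of 3 mouse melanomas was captured in droplets and read from the 3' end. The authors aligned reads to GRCm38 with GSNAP, counted unique molecular identifiers per gene and cell, and clustered and named the cells with Seurat 2.2.0. The deposited tables hold raw counts of UMIs for 36530 features by Entrez identifier. Per the labels of the deposited cell table, each cell has a tumor and a cluster name (unit other), and the authors' totals of UMIs and genes are counts. The sums of the count tables exceeded those totals by 5.17% (untreated), 6.09% (regressed) and 4.42% (progressed), for a reason that was not found. Identifiers were matched to RefSeq symbols of GRCm38.p6 for 31127 features. Columns of other samples that were set aside numbered 0.

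Counts were summed per cluster and tumor and divided by the sum of all features (CPM). CPM carries exact Poisson 95% intervals, shares exact Clopper-Pearson intervals and log2 ratios exact conditional binomial intervals, all for counting error only. With 1 tumor per group no test was made and cells were not treated as replicates. Where a group held 0 UMIs, 3 UMIs took the place of 0 and the ratio is a bound. List members were counted past 2-fold among genes with 20 or more UMIs over both tumors. Shares were repeated after thinning cells to 1000 UMIs. Depth sets the precision: the compared groups ranged from 16 to 3422 cells.

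Cluster names were kept as deposited. No doublet caller was run, and the 5% of cells with the most UMIs were left out as an alternative. Cells carry serial numbers in place of barcodes, so barcodes shared between libraries were not counted here. The genes, the lists and the marker genes were chosen with earlier results of these data known. Genes named are Kit and Kitl, from each pathway list at most the 3 members with the most UMIs in a cell group and those past 2-fold there, the 6 genes most like each in level, and marker genes where a name is checked. Some items of these sets and of the mouse model are not reported here. The alternatives were other totals, TMM scaling (edgeR 4.0.16, R 4.3.3), equal weight per cell, thinning, cell filters, other stroma sets and other UMI minimums. Alternatives added after seeing the data were background subtraction, vessel cells with at least 3 of 8 endothelial markers, and single stroma clusters. Scripts (Python 3.11.15, scipy 1.17.1) were tested on simulated data.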

Additional observations from a re-analysis of the deposited data

How the results depend on the processing

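No paired analysis was possible because each group held 1 tumor. Over all alternatives, 83 of 90 Kit ratios and 154 of 186 Kitl ratios stayed within their interval, and 2 Kitl ratios whose interval excluded 0 turned in sign. These were stroma, progressed against regressed, without Stroma10 (0.0062) and Undefined1, regressed against untreated, thinned (-0.47, on 3 regressed and 5 untreated UMIs). A further 5 Kit and 16 Kitl ratios, whose intervals included 0, also turned in sign, 3 and 5 of them after thinning. In some of the thinned ones a tumor fell to 0 UMIs, and the floor of 3 UMIs alone gave the sign. These were Kit in tumor cells (regressed against untreated) and in NK/T cells (progressed against regressed). They were also Kitl in tumor cells (regressed against untreated) and in Undefined2 (progressed against regressed). The causes of the others were not tested.

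In the following, log2 ratios are given as RU (regressed against untreated), PR (progressed against regressed) and PU (progressed against untreated). After thinning to 1000 UMIs they were, for Kit, -1.15 (RU) and -0.64 (PR) in tumor cells and 0.29 (RU) and 1.23 (PR) in NK/T cells, with the floor of 3 UMIs where a tumor fell to 0. For Kitl they were 0.44 (RU) and 0.071 (PU) in stroma and 1.71 (RU) and -1.45 (PR) in vessel cells. In Tumor1 they were 0.60 (RU) and -4.07 (PR), and in tumor cells -0.66 (RU) and -2.71 (PR). They were 0.39 (PR) in Undefined1 and -0.75 (PR) in Undefined2. For Kitl the floor entered in Tumor1 (RU), tumor cells (RU) and Undefined2 (PR), where a tumor fell to 0. Without cells holding a mast gene UMI, Kit was -2.14 (PR) in tumor cells, and Kitl was 0.88 (RU) and -0.54 (PR) in stroma, -3.60 (PR) in Tumor1 and 3.69 (RU) and -4.00 (PR) in Undefined2, where 95 of 102 regressed cells hold such proteases. Kit in tumor cells was 2.38 (RU) without the cell with the most Kit and -1.78 (PR) without pigment-rich cells. TMM added 0.14 (RU), 0.19 (PR) and 0.34 (PU) to every ratio in mast cells. Kitl in stroma was 0.39 (RU) and -0.071 (PR) with TMM, 0.90 (RU), -0.14 (PR) and 0.76 (PU) over clusters present in every tumor, 0.25 (RU) without Stroma10 and -0.56 (PR) after background subtraction, which gave 3.73 (RU) and -2.11 (PR) in Undefined1. Kitl in vessel cells was 2.38 (RU) with equal weight, and 2.41 (RU) without the 5% deepest cells, which gave -1.31 (PR) and -1.25 (PU) in Undefined2.

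The numbers of pathway genes past 2-fold moved with the minimum of UMIs, listed here as RU, PR and PU. In mast cells they were 3, 4 and 4 at 20 UMIs, 9, 9 and 12 at 5 UMIs, 1 (PR) and 2 (PU) at 50 UMIs, and 5 (RU) and 2 (PR) with TMM. In Tumor1 they were 3, 5 and 3, with 11 (RU) and 10 (PR) at 5 UMIs and 0 (RU) and 2 (PR) at 50. In stroma they were 8, 11 and 1, with 13 (RU) and 3 (PU) at 5 UMIs and 0 (PU) at 50. In vessel cells they were 4, 4 and 3, with 12, 15 and 7 at 5 UMIs, and 2, 0 and 0 at 50. Depth limits what can be seen in tumor cells of the regressed tumor and in vessel cells of the progressed one.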

Other observations

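Cells with UMIs of both genes were few. Of 12670 cells, 67 held both, of which 16 were untreated, 40 regressed and 11 progressed. In the regressed tumor 23 of the 40 were Stroma10 cells, where Kit was at the level of cells not known for it. In the untreated tumor 7 of the 16 were blood vessel cells, of which 16 held Kit and 29 held Kitl among 74. In the progressed tumor 6 of the 11 were dividing cells. All 6 mast cells with a Kitl UMI also held Kit.

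The genes whose level was most like that of Kit over 53 groups of 1 cluster in 1 tumor with at least 20 cells were Ms4a2 (Pearson r 0.85), Mrgprb1 (0.85), Tpsab1 (0.84), Gcsam (0.83), Cyp11a1 (0.83) and Atp8b5 (0.83), on log2(CPM + 10). Only the regressed and progressed mast cells entered as mast cell groups, so these values rest largely on 2 points. For Kitl the 6 included Ltbp4 (0.81), Mprip (0.81), Arhgap29 (0.80), Tmem47 (0.79) and Il17rd (0.78). With a pseudocount of 1 in place of 10, 3 of the 6 genes were the same for each. The r between Kit and Kitl was -0.31. The groups share 3 libraries and their depth, and these values are a description with no test.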
